A study of Mus musculus with 16 samples.

Results

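The comparison described here is between mouse primary forebrain neuronal cultures that carried a short hairpin RNA with 5 point mutations and cultures that carried the empty vector. The libraries were chosen by their labels alone: 4 libraries of the 5-mutation hairpin (labelled shRNA_5bp) and 4 of the empty vector (Empty_Vector), 8 of the 16 libraries in the series. The cultures were of perinatal origin, all were transduced with a lentiviral vector, and total RNA was sequenced after depletion of ribosomal RNA. Besides the empty vector, the series holds 4 libraries each of the unmutated hairpin (shRNA) and of the same hairpin with 2 point mutations. Genotype, strain, age, hairpin sequence, promoter and time after transduction are not given in the sources used here. Whether each replicate was a culture of its own is not stated in the labels; every p-value here therefore reflects the spread among these libraries, which may be technical.

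A short hairpin RNA is cut by Dicer into a short duplex, and 1 strand is loaded into an Argonaute protein, where it guides cleavage of RNAs that pair with it along their length. The same loaded strand can also act as a microRNA does: its seed, bases 2 to 8 from the 5′ end, pairs with short matches in the 3′ untranslated region (UTR) of many messenger RNAs and lowers them modestly. Point mutations in a hairpin are a common way to remove cleavage of the intended target while the vector, the hairpin and its processing stay in place.

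Rtn4, which encodes the Nogo proteins of the endoplasmic reticulum, was lowered by the unmutated hairpin (mean 30.5 CPM) and the 2-mutation hairpin (127 CPM). The labels do not name the target of the hairpin, and Rtn4 was taken for it because both of these hairpins lower it. CPM is the usual depth-scaled read count, here with TMM factors. With the empty vector Rtn4 (ENSMUSG00000020458.16, GRCm38 chr11:29692947-29744331) measured 842, 837, 881 and 891 CPM, and with the 5-mutation hairpin 836, 773, 845 and 856 CPM. The groups overlapped, and the log2 fold change was −0.06 ± 0.04 (SE, edgeR adjusted p = 0.203). The gene overlaps Eml6 on the opposite strand, and whether counting used strand is not given in the sources used here.

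The empty vector libraries held 33795369 to 46187568 counts, and those of the 5-mutation hairpin 35521472 to 47401867. Gm26917, a locus where ribosomal RNA reads tend to land, took 5.85% to 6.34% of the empty vector counts and 7.995% to 9.16% of the 5-mutation counts. The labelled cell type was checked with 24 pan-neuronal genes, whose summed level was 15183 to 16224 CPM with the empty vector and 13503 to 14831 CPM with the 5-mutation hairpin. On the second principal component of all 16 libraries (24.5% of variance) the 5-mutation libraries stood apart from the other 12.

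While Rtn4 did not pass the test, 10697 of 19479 genes tested (54.9%) differed between the 5-mutation hairpin and the empty vector (edgeR quasi-likelihood test, Benjamini-Hochberg adjusted p below 0.05, called changed from here on). Of these, 5540 (28.4%) were higher and 5157 (26.5%) lower. The median size of a change was 0.522 on the log2 scale. More than 2-fold changes were found for 1208 genes higher (6.20%) and 1194 lower (6.13%). Measured against the unmutated hairpin, 10771 genes (55.3%) differed, 5555 higher (28.5%) and 5216 lower (26.8%). Against the 2-mutation hairpin it was 12838 genes (65.9%), 6553 higher (33.6%) and 6285 lower (32.3%), and with library totals in place of TMM scaling this last split became 8060 and 5047. For 9374 genes (48.1%) the 4 libraries of the 5-mutation hairpin and the 4 of the empty vector did not overlap.

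Genes that were lower with the 5-mutation hairpin than in each of the other 3 groups numbered 1785, and those that were higher 1572. Together they were 17.2% of all genes tested. They were changed in the same direction against all 3, with at least 5 CPM in a group and no overlap with the empty vector. Predicted genes, clones and pseudogenes were left out of these counts, but not of the genes tested. The list of the 10 most strongly lowered by their smallest change against the 3 groups held synaptic and membrane-traffic genes. Slc17a7 encodes VGLUT1, which loads glutamate into vesicles in cortical excitatory neurons. The gene (ENSMUSG00000070570.5, chr7:45163949-45176142), measured 620, 588, 592 and 646 CPM with the empty vector and 86.4, 74.3, 86.3 and 79.8 CPM with the 5-mutation hairpin. Its means were 573 CPM with the unmutated and 725 CPM with the 2-mutation hairpin. The fall of 7.49-fold (log2 −2.90 ± 0.06, edgeR adjusted p = 3.78e-20) far exceeded the spread of either group.

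Dnm3, a dynamin that acts in membrane fission at synapses, measured 185, 212, 209 and 207 CPM with the empty vector and 24, 31.2, 24.8 and 26.6 CPM with the 5-mutation hairpin (log2 −2.93 ± 0.07, edgeR adjusted p = 4.13e-18). The unmutated and 2-mutation means, 161 and 179 CPM, lay near the empty vector. On the other strand Dnm3 overlaps 2810442N19Rik and Gm10176. Sdk2, an adhesion molecule of synaptic layers in the retina, measured 79.9, 82.8, 93.9 and 85.6 CPM with the empty vector and 10.0, 11.4, 10.3 and 10.4 CPM with the 5-mutation hairpin (log2 −3.02 ± 0.07, edgeR adjusted p = 2.3e-19). Trp53inp2, an autophagy factor, went from 242, 231, 242 and 256 CPM to 49.0, 43.6, 49.7 and 44.7 CPM, and stood at 316 CPM with the unmutated and 506 CPM with the 2-mutation hairpin.

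Rab5c, a GTPase of early endosomes, measured 98.2, 95.9, 93.2 and 99.8 CPM with the empty vector and 20.5, 16.8, 22 and 19.0 CPM with the 5-mutation hairpin (log2 −2.31 ± 0.06, edgeR adjusted p = 4.13e-18). Ccng1, a cyclin induced by p53, measured 112, 117, 106 and 122 CPM with the empty vector against 21.8, 17.9, 27.0 and 25.9 CPM, while the 2-mutation hairpin had a mean of 208 CPM. Among the rest of the 10 were the serotonin-gated channel subunit Htr3a (−3.01 ± 0.18), the substance P receptor Tacr1 (−2.84 ± 0.17) and the receptor partner Ramp1 (−2.60 ± 0.13).

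Among the 15 lowest fold changes against the empty vector (genes of at least 5 CPM in a group, with no overlap), several genes were low with the other hairpins too. Glp1r, the receptor of glucagon-like peptide 1, had the lowest value of these (log2 −4.32 ± 0.24, edgeR adjusted p = 2.12e-12): 7.84, 8.49, 9.98 and 8.25 CPM fell to 0.610, 0.373, 0.389 and 0.331 CPM. Its means were 2.05 CPM with the unmutated and 0.826 CPM with the 2-mutation hairpin. Hk2, the hexokinase that is induced by low oxygen and growth signals, fell from 38.5, 27.8, 30.0 and 19.0 CPM to 2.88, 4.43, 1.06 and 0.918 CPM. Its 4.89 and 2.14 CPM with the other hairpins were close to those values, and the 5-mutation hairpin differed from the 2-mutation one by 0.17 on the log2 scale (edgeR adjusted p = 0.781). Cpne8, Trhr, Zfp521, Glra3, Tmem132c, Dsc3 and Fibin were also among the 15, with log2 fold changes from −3.95 to −2.93.

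At the other end, Rec8, a cohesin subunit of meiosis, had the highest fold change against the empty vector among genes of at least 5 CPM in a group. It measured 1.0, 1.64, 0.464 and 0.360 CPM with the empty vector and 15.3, 17.9, 15 and 14.6 CPM with the 5-mutation hairpin (log2 4.24 ± 0.30, edgeR adjusted p = 3.7e-09), and 0.795 and 1.53 CPM with the other hairpins. Rasa4, a Ras GTPase-activating protein, rose from 3.16, 2.26, 2.30 and 2.76 CPM to 20.8, 19.1, 18.4 and 17.6 CPM (log2 2.86 ± 0.12, edgeR adjusted p = 9.76e-15). The libraries of the 2 groups lay far apart for both genes.

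Nckap5 was already well detected with the empty vector, at 15.7, 13.1, 16.3 and 14.8 CPM, and rose to 60.6, 63.9, 64.0 and 63.6 CPM (log2 2.07 ± 0.08, edgeR adjusted p = 3.02e-15). Bcl6b, a transcriptional repressor, rose from 1.12, 1.13, 0.994 and 1.13 CPM to 5.73, 5.65, 4.64 and 5.63 CPM. Their means with the 2-mutation hairpin were 7.41 and 0.294 CPM. Resp18, a protein of endocrine secretory cells (2.23 ± 0.11), Col9a1 (2.66 ± 0.19), Oca2 (2.51 ± 0.23) and Sowahb (2.46 ± 0.21) were also higher than in each of the 3 other groups. Crispld2 rose from 2.44, 2.29, 2.65 and 2.40 CPM to 19.8, 18.1, 20 and 20.1 CPM, and Itga7, a laminin receptor, from 2.81, 2.56, 1.79 and 2.25 CPM to 25.1, 27.3, 23.5 and 24 CPM. Tent5a, Serinc2, Scarf2, Ucp2, Iqcf5 and Hunk, also among the 15 highest, had log2 fold changes from 2.75 to 3.14.

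**Figure D1:**
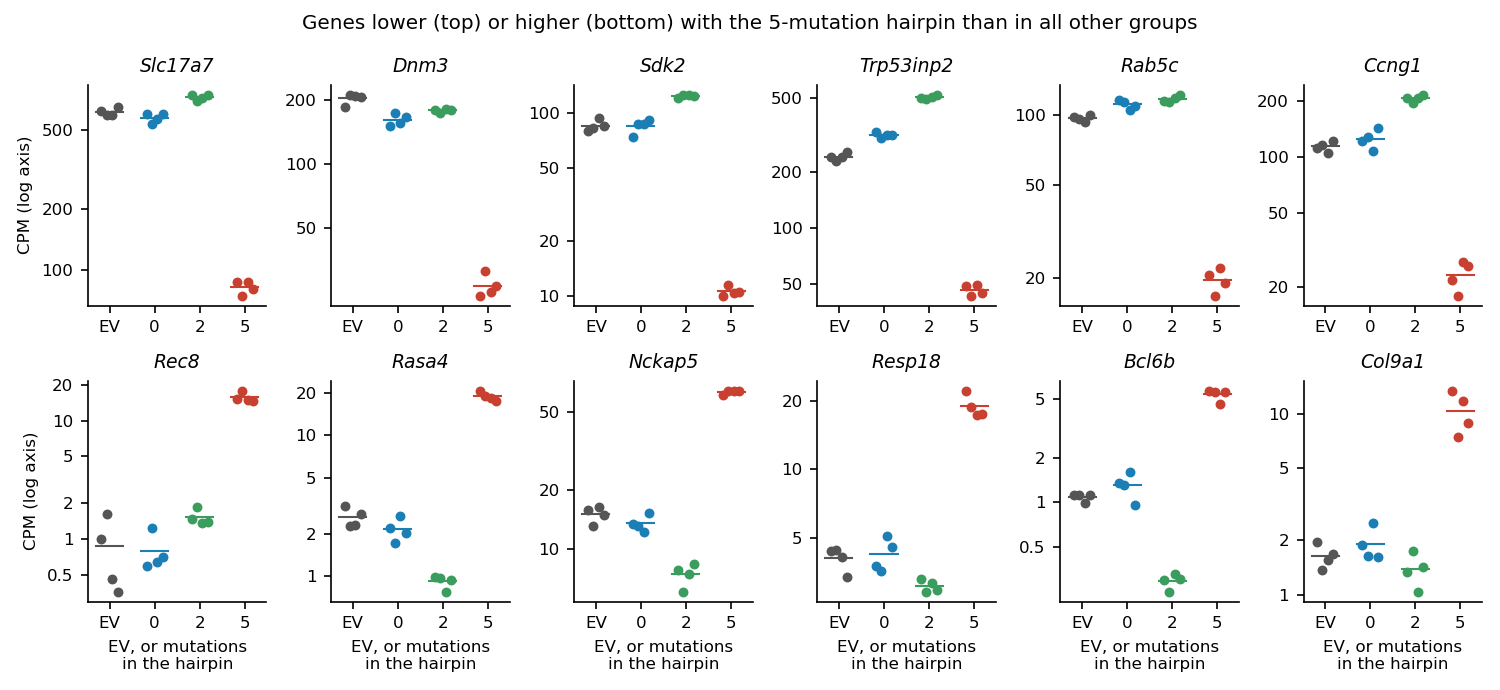
CPM (log axis) of 12 genes in each of the 16 libraries, grouped as empty vector (EV) and hairpins with 0, 2 or 5 mutations; points are libraries and lines group means. The 5-mutation libraries lie below all others for the 6 genes of the top row (Slc17a7 at 74.3 to 86.4 CPM) and above all others for the 6 of the bottom row (Rec8 at 14.6 to 17.9 CPM).

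A short sequence in the 3′ UTR was more frequent among lowered genes than among all genes, although most lowered genes lacked it. The scan took the 15900 words of 7 bases that occur in 100 or more of the 14237 UTRs measured. For each word a regression on the fold changes gave the log2 difference that went with at least 1 copy, at equal log2 UTR length and GC content. The most extreme word relative to its error was CTAACCA, with a coefficient of −0.37. Because the scan chose it from these fold changes, its values are a description and carry no test, and genes are not independent replicates. The next word in rank was TCTAACC, with a coefficient of −0.29, which overlaps it. On the opposite strand it reads TGGTTAG, which ranked 15842 from the low end with a coefficient of 0.051.

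Windows of 23 bases, read from the GENCODE transcripts, show the word in capitals in 6 of the named genes. They are shown because these genes fell strongly and carry the word. Each window was cut around a copy of it, so its presence in every window is given by the choice.
Slc17a7, first copy (chr7:45175475-45175497, plus strand): aggctcgcCTAACCAattctaca
Slc17a7, second copy (chr7:45175510-45175532, plus strand): ggtttaacCTAACCAccaatgcc
Sdk2, first copy (chr11:113777151-113777173, minus strand): tgccaagaCTAACCAaatagctg
Sdk2, second copy (chr11:113776738-113776760, minus strand): cacccaccCTAACCAacacctcg
Rab5c (chr11:100715973-100715995, minus strand): aatctactCTAACCAatcgcact
Ccng1 (chr11:40748594-40748616, minus strand): gaagttaaCTAACCAactaccat
Sv2a (chr3:96195163-96195185, plus strand): aagttaaaCTAACCAcaaaaaga
Dnm1 (chr2:32308993-32309015, minus strand): ttcgacctCTAACCAgatccctc
The word began 60 bases after the stop codon in Rab5c and 4038 bases after it in the second copy of Sdk2, so these copies were not at a fixed place.

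The word was present in 1102 UTRs. Genes with it had a median log2 fold change of −0.329, against 0.036 for the 13135 genes without it. Of the genes with the word 58.6% were lower and 17.1% higher, and of those without it 29.4% and 34.4%. The median moved with the number of copies: −0.307 for 1007 genes with 1 copy, −0.498 for 85 genes with 2 and −0.906 for 10 genes with 3 or more. Of those 10 genes 8 were lower and 0 higher. Among them were Grin2b, an NMDA receptor subunit with 4 copies (log2 −0.61 ± 0.07), and Kcnc2, a fast potassium channel with 3 (−2.28 ± 0.11).

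Genes with the word have longer UTRs (median 1134 bases with no copy, 2619 with 1, 3983 with 2 and 5694 with 3 or more). The split by presence of the word was therefore repeated by UTR length, while that by number of copies was not. In UTRs shorter than 500 bases the median was −0.564 for 45 genes with the word and 0.084 for 3292 without. In UTRs of 4000 bases or more it was −0.304 for 314 genes and −0.088 for 912. Extended matches gave medians of −0.387 (TCTAACCAA, 106 genes), −0.396 (TCTAACCA, 252 genes) and −0.36 (CTAACCAA, 176 genes), and CTAACCA with neither flanking base gave −0.272 (568 genes). Where the word lay only before the end of the stop codon, in the 5′ UTR or coding sequence, the median of 822 genes was −0.046. Of these 38.4% were lower. For the 12313 genes with the word in neither place the median was 0.04, and 28.8% were lower.

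Read from the genes' side, the word was in the UTR of 195 of 884 genes that were over 2-fold lower (22.1%) and of 23 of 849 that were over 2-fold higher (2.71%). Among genes lower by under 2-fold it was in 451 of 3626 (12.4%). Over all genes with a UTR it was 7.74%. Of the 15 lowest genes it was present in 5, among them Glra3, Sdk2, Trhr and Slc17a7, and of the 10 that were lower than all other groups in 6, among them Sdk2, Slc17a7, Ramp1, Ccng1 and Rab5c. None of the 13 highest genes with a UTR had it. Dnm3, Trp53inp2, Glp1r and Hk2 fell without a copy in the annotated UTR.

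A score per library, the same coefficient computed on log2 CPM centred over all 16 libraries, was −0.282, −0.262, −0.26 and −0.28 with the 5-mutation hairpin. With the empty vector it was 0.1, 0.104, 0.097 and 0.096. The unmutated hairpin gave 0.081 to 0.094 and the 2-mutation hairpin 0.081 to 0.088, so the 12 other libraries lay together. Measured directly against the unmutated hairpin, genes with the word had a median of −0.295 and those without 0.024, and against the 2-mutation hairpin −0.27 and −0.032. None of the 1679 mature mouse microRNAs in the RefSeq table (GRCm38.p6) has a seed that pairs with CTAACCA. Whether a strand of the 5-mutation hairpin pairs with it was not tested.

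**Figure D2:**
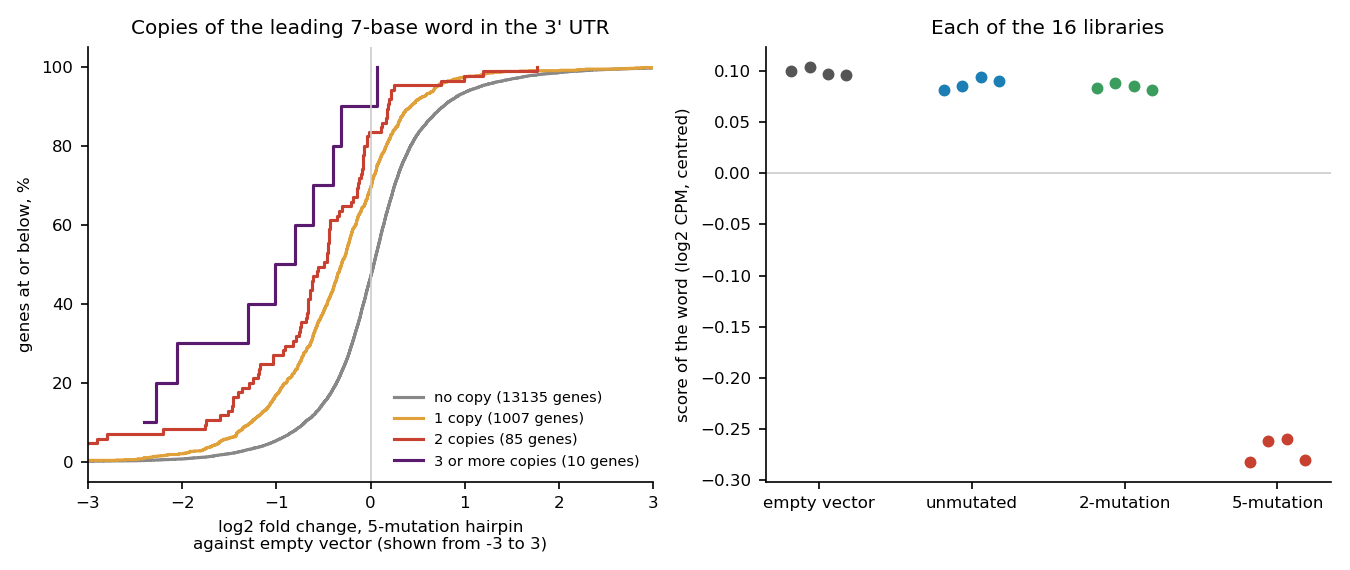
Left, cumulative share of genes (%) by log2 fold change of the 5-mutation hairpin against empty vector, for 0, 1, 2 and 3 or more copies of the leading 7-base word in the 3′ UTR; right, the word's score in each of the 16 libraries. The curves shift to lower values with more copies (medians 0.036, −0.307, −0.498 and −0.906), and the 4 libraries of the 5-mutation hairpin (−0.282 to −0.26) lie below the other 12.

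At the high end of the scan, the most extreme word relative to its error was GTGCCTT (coefficient 0.08). AGTGCCT (0.075), which overlaps it, was next. Words that pair with the let-7 seed (CTACCTC, coefficient 0.069) ranked below these. The table of mature microRNAs holds no mmu-miR-124-3p or mmu-miR-23b-3p, so no word was compared with their seeds. The let-7 family is among the most abundant microRNAs of neurons, and its mature sequence with the seed in capitals shows what the site pairs with.
mmu-let-7a-5p: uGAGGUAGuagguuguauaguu
The let-7 score computed over the 8 libraries was −0.044 to −0.028 with the empty vector and 0.018 to 0.045 with the 5-mutation hairpin, with no overlap. The difference is small next to that of CTAACCA. The median fold change of the 1511 genes with a let-7 site was 0.013, and that of the 12726 without was 0.016. Without the adjustment for UTR length and GC content, genes with the site were therefore not higher. Over all 16 libraries the 2-mutation hairpin had like let-7 scores (0.03 to 0.044) and the unmutated hairpin −0.022 to −0.02.

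Of 30 microRNA families chosen, 28 had a mature sequence and were scored, and miR-124 was not among them. Apart from let-7, their coefficients ran from −0.042 (miR-34) to 0.047 (miR-26). The miR-26 scores were −0.025 to −0.018 with the empty vector and 0.006 to 0.033 with the 5-mutation hairpin. Only 10 of the 28 coefficients moved by less than the spread of the 5-mutation libraries when the site was taken as bases 2 to 7 followed by A, let-7 (0.071) and miR-26 (0.034) among them, while miR-21 went from −0.032 to −0.005.

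Genes of the synapse were mostly lower than with the empty vector. Of 25 synaptic vesicle proteins 19 were lower and 5 higher (median log2 fold change −0.327), where of all genes 26.5% were lower and the median was 0.029. Of genes of at least 5 CPM with the empty vector that lack CTAACCA, 34.0% were lower and 35.1% higher. Relative to the unmutated hairpin 16 of the 25 were lower and 7 higher, and relative to the 2-mutation hairpin 12 and 8. Sv2a, a vesicle glycoprotein, fell most, from 482, 511, 510 and 520 CPM to 130, 130, 129 and 123 CPM (log2 −1.98 ± 0.04, edgeR adjusted p = 4.4e-20), and was 502 and 904 CPM with the unmutated and 2-mutation hairpins. The groups did not overlap. The SNARE protein Vamp2 fell by 0.67 and the vesicle tether Syn1 by 0.65 on the log2 scale, and Syn1 overlaps Araf on the other strand.

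Vesicle recycling had 15 of 19 members lower and 1 higher. Relative to the unmutated hairpin 11 were lower and 4 higher, and relative to the 2-mutation hairpin 13 and 3. Dnm1, the main neuronal dynamin, measured 600, 616, 585 and 591 CPM with the empty vector and 218, 224, 229 and 216 CPM with the 5-mutation hairpin (log2 −1.43 ± 0.04, edgeR adjusted p = 9.38e-19). Snap91, a clathrin adaptor, measured 630, 633, 641 and 657 CPM against 318, 307, 320 and 312 CPM (−1.03 ± 0.04). Together with Dnm3 these were the 3 members over 2-fold lower, and the other 12 lowered members fell by 0.12 to 0.35 on the log2 scale. Of 26 genes of the release machinery 16 were lower and 6 higher. They split more evenly relative to the unmutated hairpin (10 lower and 9 higher) and the 2-mutation hairpin (11 and 9). Cplx2, a complexin that clamps vesicle fusion, fell from 489, 564, 534 and 562 CPM to 87.0, 91.2, 96.0 and 98.7 CPM (−2.53 ± 0.06), and the 2-mutation hairpin had a like mean of 103 CPM. Doc2b, a calcium sensor of spontaneous release, rose by 0.71 ± 0.06.

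On the receiving side, 22 of 33 postsynaptic scaffold and signalling genes were lower and 3 higher, 13 of 22 glutamate receptor subunits lower and 5 higher, and 12 of 20 GABA and glycine receptor genes lower and 5 higher. In the same order, 18 were lower and 3 higher, 5 and 8, and 8 and 8 relative to the unmutated hairpin. Relative to the 2-mutation hairpin it was 12 lower and 17 higher, 4 and 10, and 9 and 10. Camk2a, the postsynaptic kinase, measured 724, 814, 827 and 864 CPM against 405, 421, 455 and 441 CPM (−0.91 ± 0.05), and Gria1, an AMPA receptor subunit, 481, 552, 530 and 537 CPM against 223, 266, 234 and 260 CPM (−1.09 ± 0.06). Glra3 and Glra2, 2 glycine receptor subunits, moved in opposite directions. Glra3 fell from between 8.84 and 10.3 CPM to between 0.528 and 0.763 CPM, and Glra2 rose from between 30.0 and 32.9 CPM to between 81.2 and 86.6 CPM. Grm8, a metabotropic receptor, rose by 1.60 ± 0.13.

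Ion channels followed the same direction against the empty vector: 18 of 24 sodium and calcium channel genes were lower and 2 higher, and 25 of 41 potassium and HCN channel genes lower and 9 higher. Relative to the unmutated hairpin it was 13 lower and 7 higher, and 15 and 13 (medians −0.198 and 0.057). Relative to the 2-mutation hairpin more were higher than lower: 13 against 7, and 20 against 14. Kcnma1, the large-conductance calcium-activated potassium channel, measured 401, 387, 426 and 391 CPM against 121, 131, 113 and 111 CPM (−1.75 ± 0.06, edgeR adjusted p = 5.77e-16). Scn8a, an axonal sodium channel, measured 261, 267, 275 and 269 CPM against 114, 132, 113 and 110 CPM (−1.19 ± 0.05). Both carry 2 copies of the 7-base word. Cacna2d2, a calcium channel subunit, fell by 2.48 on the log2 scale, to 6.78 to 8.83 CPM, near its mean with the unmutated hairpin (8.78 CPM). The 6 channel genes of the sodium and calcium list that carry the word had a median of −0.882 and the 18 without it −0.226.

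Neuronal identity genes differed by class. Of 25 genes of excitatory identity 16 were lower and 4 higher (median −0.282). Relative to the unmutated hairpin 13 were lower and 5 higher, and relative to the 2-mutation hairpin 10 and 9. Mef2c, a transcription factor of cortical neurons, fell from 856, 934, 962 and 987 CPM to 349, 392, 348 and 361 CPM (−1.37 ± 0.05). Sox5, a factor of deep-layer projection neurons, rose from 53.4, 45.0, 47.9 and 49.2 CPM to 117, 110, 114 and 108 CPM. While Slc17a7 fell, the other vesicular glutamate transporters rose: Slc17a6 (VGLUT2) from 25.3, 26.6, 25.9 and 28.2 CPM to 83.8, 80.3, 85.7 and 76.0 CPM (1.62 ± 0.15), and Slc17a8 (VGLUT3) by 1.39 ± 0.15. Rbfox3, which encodes the neuronal nuclear antigen NeuN, measured 148, 149, 150 and 154 CPM against 30.9, 31.3, 30.6 and 32.6 CPM (−2.26 ± 0.04, edgeR adjusted p = 3.78e-20). It was 106 and 119 CPM with the unmutated and 2-mutation hairpins. The fall of Rbfox3 was not typical of the 24 pan-neuronal genes, of which 11 were lower and 6 higher (median −0.135). Relative to the unmutated hairpin 7 of the 24 were lower and 11 higher, and relative to the 2-mutation hairpin 13 and 9.

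Inhibitory identity genes fell almost throughout: of 23 measured, 21 were lower, 0 higher and 15 over 2-fold lower (median −1.559). The GABA-synthesizing enzyme Gad2 measured 156, 191, 158 and 176 CPM against 31.5, 62.3, 29.4 and 38.2 CPM (−2.07 ± 0.36, edgeR adjusted p = 0.000303), and the vesicular GABA transporter Slc32a1 95.0, 106, 95.1 and 99.5 CPM against 27.5, 37.4, 28.8 and 31.2 CPM. In both genes the second library of the 5-mutation hairpin was the highest of its group. Fewer cells of a type and less RNA per cell cannot be told apart in bulk libraries such as these.

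The interneuron transcription factors fell as well: Lhx6 by 1.5, Dlx1 by 1.73 and Npas1 by 2.22 on the log2 scale. Summed over the list, the level was 1339 to 1499 CPM with the empty vector and 478 to 648 CPM with the 5-mutation hairpin. Compared directly with the unmutated hairpin, 4 of the 23 were higher and 7 lower (median 0.063). Against the 2-mutation hairpin 3 were higher and 14 lower. The 19 members without the 7-base word and the 3 with it had the same median, −1.559. Npas1 and Dlx1 did differ from the unmutated hairpin (log2 −2.21 and −1.43).

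**Figure D3:**
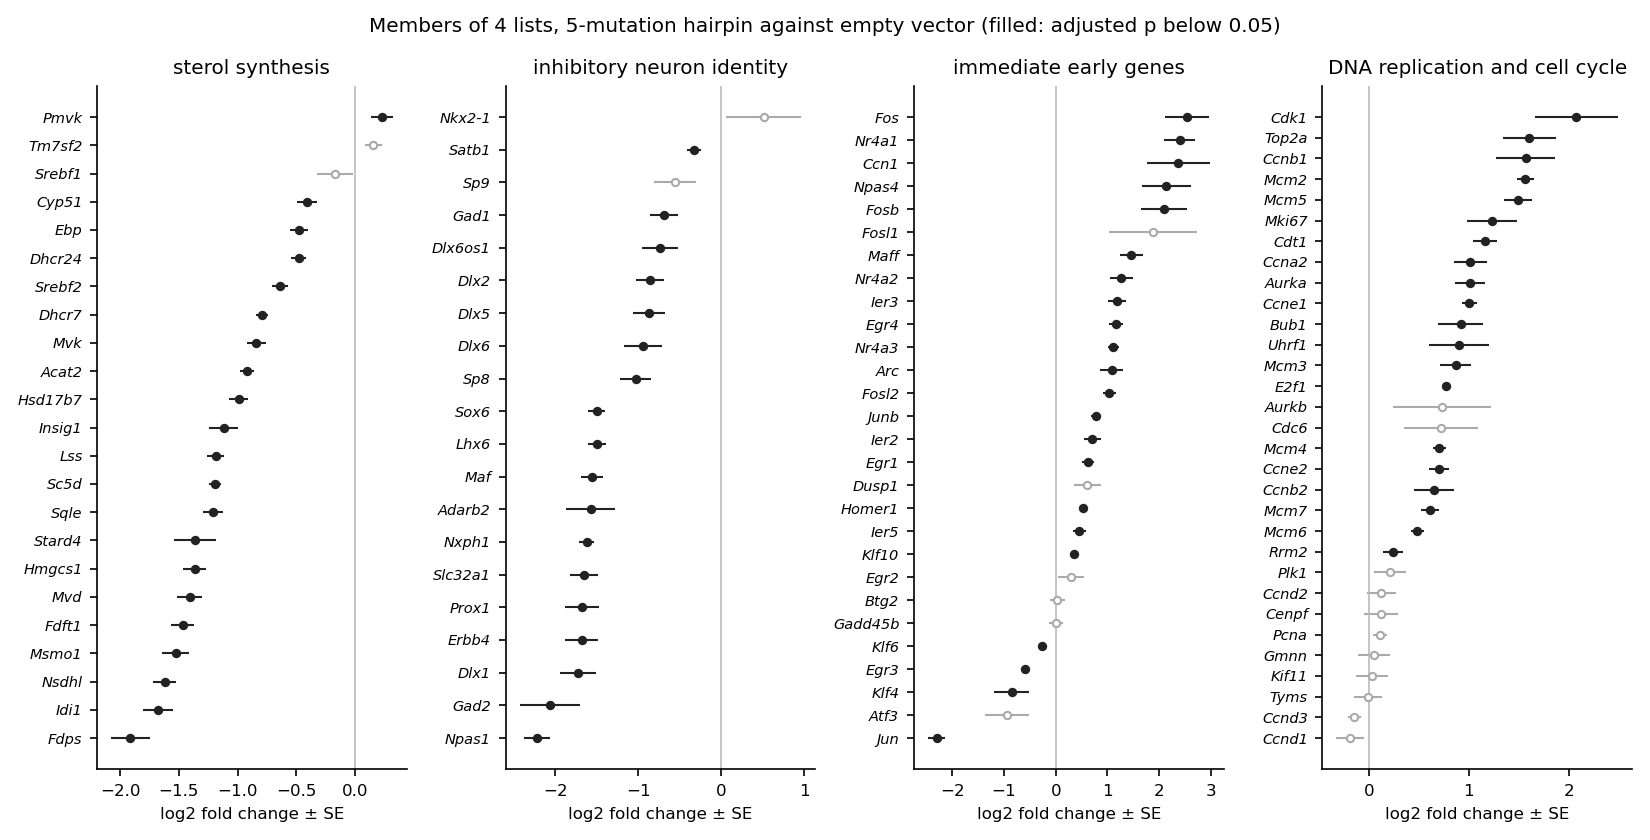
Log2 fold change ± SE of members of 4 gene lists (5 members are not drawn), 5-mutation hairpin against empty vector; filled points are changed genes (edgeR adjusted p below 0.05). Sterol synthesis (22 of 25 lower) and inhibitory identity (21 of 23 lower) lie left of 0, immediate early (18 of 28 higher) and cell cycle genes (20 of 31 higher) mostly right of it.

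Markers of other cells that such cultures hold also moved, and their part in the results above was not tested. Of 19 astrocyte markers 9 were lower and 0 higher (47.4% changed, 54.9% of all genes). Their summed level was 1688 to 2097 CPM with the empty vector and 865 to 1302 CPM with the 5-mutation hairpin. Slc1a2, the glial glutamate transporter, measured 694, 719, 686 and 754 CPM against 373, 367, 411 and 419 CPM. Gfap, the astrocyte filament, did not pass the test (−0.34 ± 0.39), and its 52.1, 22.9, 89.1 and 81.5 CPM overlapped the 62.1 to 107 CPM of the empty vector. Its value ran from −0.57 to −0.06 with 1 library left out, −0.06 without the second 5-mutation library, and it passed in 1 alternative, the fit with no filter on low counts (edgeR adjusted p = 1.03e-09). Among 8 oligodendrocyte lineage markers 3 were higher and 2 lower (62.5% changed). The myelin gene Mbp rose from 28.9, 26.3, 24.8 and 23.3 CPM to 76.0, 63.4, 69.5 and 65.2 CPM (1.41 ± 0.06), and Myrf, a myelin gene regulator, from at most 0.243 CPM to between 2.32 and 3.67 CPM (4.47 ± 0.34). The progenitor factors Olig1 and Olig2 fell by 0.97 and 1.36. Of 16 microglial markers 5 were measured, with a summed level of 18.9 to 21.2 and 21.2 to 26.7 CPM.

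Several fibroblast and matrix genes were uneven between replicates. Col1a1, a fibrillar collagen of fibroblasts, measured 2.87, 2.62, 6.16 and 2.76 CPM with the empty vector and 8.48, 9.08, 58.2 and 13.7 CPM with the 5-mutation hairpin, so the third library was over 4 times any other. The third library was also the highest of the unmutated group (3.85, 4.23, 10.3 and 7.04 CPM) and of the 2-mutation group (5.03, 5.51, 15.6 and 6.89 CPM). For Col1a2, Col3a1, Bgn and Spp1 the third library was likewise the highest of each group. Bgn and Spp1 belong to the 10 genes higher than in each other group, and Bgn, Spp1, Col3a1 and Col1a2 to the 15 highest.

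With all libraries the log2 fold changes of Col1a1, Col1a2, Col3a1, Bgn and Spp1 were 2.59, 2.92, 3.33, 3.10 and 3.06. Without the third 5-mutation library they were 1.5, 1.66, 1.99, 1.59 and 1.87, and all 5 stayed below an edgeR adjusted p of 0.05. Of 16 endothelial, mural and fibroblast markers 8 were higher and 3 lower (68.8% changed, 54.9% of all genes). Without that library 5 were higher and 4 lower. The 3 lower with all libraries were the fibroblast proteoglycan Dcn, from 18.2, 18.9, 19.6 and 25.1 CPM to 3.94, 4.35, 10.5 and 6.12 CPM (−1.74 ± 0.27), and the endothelial receptors Kdr (−1.45 ± 0.27) and Pecam1 (−0.76 ± 0.23). The summed level of all 16 markers was 36.5 to 48.9 CPM with the empty vector and 36.4 to 203 CPM with the 5-mutation hairpin. Of the whole comparison, 10569 genes were changed without the third library, 5379 higher and 5190 lower.

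**Figure D4:**
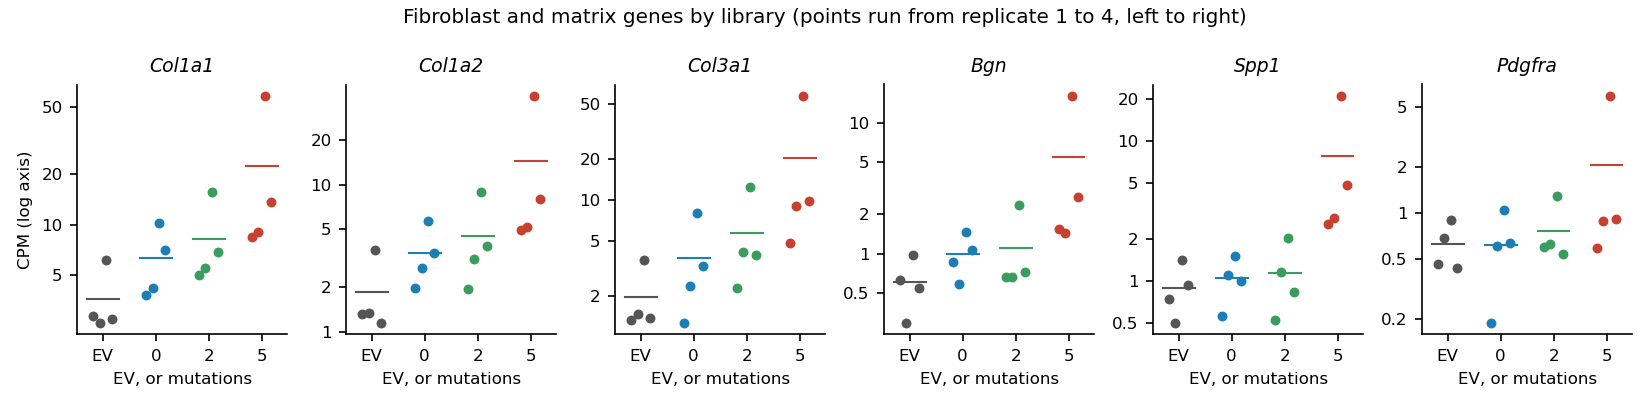
CPM (log axis) of 6 fibroblast and matrix genes in each of the 16 libraries, empty vector (EV) and hairpins with 0, 2 or 5 mutations; points run from replicate 1 to 4 and lines are group means. In each group the third point is the highest, up to 58.2 CPM for Col1a1 with the 5-mutation hairpin.

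Sterol synthesis genes were lower nearly as a set, with 22 of 25 members lower, 1 higher and 13 over 2-fold lower (median −1.118). The pathway builds cholesterol from acetyl-CoA, and its genes are known targets of the transcription factor SREBP2. Early in the pathway, Hmgcs1 measured 1273, 1314, 1431 and 1321 CPM with the empty vector and 434, 569, 539 and 529 CPM with the 5-mutation hairpin (−1.37 ± 0.10, edgeR adjusted p = 3.53e-09). Further along, Idi1 fell by 1.68, Fdps by 1.92, Fdft1 by 1.47, Sqle by 1.21 and Nsdhl by 1.62. Fdft1 overlaps Ctsb on the opposite strand, which also fell.

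Srebf2, which encodes SREBP2, fell by 0.64, and Pmvk was the member that rose, by 0.23, a call lost under 7 of the 18 alternatives tried. The sterol list was also lower than with the unmutated hairpin, with 18 of 25 members lower and 3 higher (median −0.34), while against the 2-mutation hairpin 12 were higher and 7 lower. Sc5d was the 1 member with CTAACCA, and the 24 without it had a median of −1.054. In the RefSeq promoters (250 bases before to 50 after the start, both strands, GRCm38.p6) the sterol regulatory element TCACNCCAC was found in 1 of 18 members, Hmgcs1, and in 1.38% of 12275 genes.
Hmgcs1 promoter (chr13:119690206-119690230, plus strand): tcaccgtcTCACCCCACttcccagg
The capitals mark the match, which lies 137 bases before the annotated start. Hmgcs1 overlaps Gm48342 on the other strand.

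Glycolysis and stress genes were also mostly lower. Of 22 glycolysis genes 18 were lower and 1 higher (median −0.618, 86.4% changed, 54.9% of all genes). Aldoa, an aldolase, measured 1093, 1009, 944 and 962 CPM against 427, 338, 394 and 350 CPM (−1.41 ± 0.06), and the glucose transporter Slc2a1 38.1, 33.7, 33.1 and 28.4 CPM against 12.2, 11.7, 9.95 and 8.21 CPM. Slc2a1 overlaps Gm12868 on the other strand. Against the unmutated hairpin 8 members were higher and 7 lower (median 0.042). Of 33 genes of the integrated stress and unfolded protein responses 23 were lower and 5 higher (84.8% changed). Slc7a3, an arginine transporter, measured 28.6, 26.5, 24.9 and 28.6 CPM against 6.17, 5.14, 4.03 and 4.79 CPM, and Chac1, a glutathione-degrading enzyme induced by stress, 20.9, 17.2, 18.9 and 17.7 CPM against 6.76, 6.53, 8.48 and 5.99 CPM. Their means with the unmutated hairpin were 42.5 and 33.1 CPM.

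Of 27 p53 target and apoptosis genes 11 were lower and 7 higher (66.7% changed, 54.9% of all genes). Compared with the unmutated hairpin 17 were lower and 6 higher. Hrk, a pro-apoptotic BH3 protein of neurons, fell from 103, 129, 140 and 146 CPM to 18.2, 22.1, 21.2 and 25 CPM (−2.59 ± 0.14). The related Bbc3 rose from 38.9, 37.4, 41.4 and 38.9 CPM to 61.2, 58.4, 64.9 and 63.6 CPM, and the survival gene Bcl2 rose by 1.18 ± 0.08.

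Immediate early genes, which neuronal activity and growth factors switch on within minutes, were mostly higher. Of 28 genes 18 were higher and 4 lower (78.6% changed, 54.9% of all genes), and 12 were over 2-fold higher (median 0.743). Fos measured 6.60, 6.16, 7.29 and 9.52 CPM with the empty vector and 40.1, 26.8, 84.9 and 20.9 CPM with the 5-mutation hairpin (2.53 ± 0.43, edgeR adjusted p = 0.000217). The nuclear receptor Nr4a1 measured 10.9, 8.72, 7.75 and 11 CPM against 44.5, 40.0, 85.0 and 32.7 CPM (2.40 ± 0.30), and Npas4 8.35, 9.74, 8.21 and 8.68 CPM against 27.2, 23.9, 85.3 and 18.3 CPM (2.14 ± 0.48). The third 5-mutation library was the highest for all 3, as it was for the fibroblast genes. Without it 18 members were higher and 6 lower, and the fold changes of Fos, Nr4a1 and Npas4 were 1.98, 2.03 and 1.41, all below an edgeR adjusted p of 0.05.

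Jun, the partner of Fos, went the other way, from 96.7, 103, 112 and 103 CPM to 22.2, 15.9, 30.7 and 15.7 CPM (−2.30 ± 0.17, edgeR adjusted p = 3.78e-08), and overlaps Junos. It was 119 and 78.1 CPM with the unmutated and 2-mutation hairpins. No immediate early gene of the list carries CTAACCA. Against the unmutated hairpin 12 members were higher and 5 lower, and against the 2-mutation hairpin 19 and 4.

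Of 36 growth factor and ERK feedback genes 14 were higher and 15 lower (median −0.166, 80.6% changed, 54.9% of all genes). Of the 36, 8 were over 2-fold higher and 5 over 2-fold lower. The phosphatase Dusp5 measured 2.90, 2.74, 2.16 and 3.07 CPM against 24.6, 21.0, 24.1 and 21.8 CPM (3.08 ± 0.10, edgeR adjusted p = 6.89e-17). Dusp6, the ERK phosphatase of the cytoplasm, measured 26.3, 23.8, 21.0 and 24.8 CPM against 126, 105, 128 and 105 CPM (2.28 ± 0.14), and the receptor signalling inhibitor Spry4 14.2, 12.9, 14.2 and 13.9 CPM against 75.0, 58.7, 75.8 and 58.0 CPM. For these 3 genes the libraries of the 2 groups did not overlap. The neurotrophin Bdnf rose from 25.7, 23.7, 27.6 and 24.3 CPM to 96.0, 85.0, 114 and 77.1 CPM (1.87 ± 0.18), and did not differ from the unmutated hairpin past the threshold (0.32, edgeR adjusted p = 0.138). Members of the list that fell included Fgf12 by 0.71, Pdgfa by 0.57 and Vegfa by 1.0 on the log2 scale.

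DNA replication and cell cycle genes were low in all libraries and mostly higher with the 5-mutation hairpin. Of 31 genes 20 were higher and 0 lower (median 0.721, 64.5% changed, 54.9% of all genes). Mcm2, part of the replicative helicase, measured 6.86, 7.0, 6.96 and 8.01 CPM with the empty vector and 22.2, 17.4, 23.4 and 22.6 CPM with the 5-mutation hairpin (1.56 ± 0.09, edgeR adjusted p = 1.02e-12). E2f1, a transcription factor of the entry to DNA synthesis, measured 16.3, 17.5, 16 and 15.3 CPM against 26.9, 27.0, 28.8 and 28.5 CPM (0.78 ± 0.05). Ccne1, the cyclin E1 gene, rose from between 7.07 and 8.04 CPM to between 14.1 and 16 CPM. The proliferation marker Mki67 measured 0.775, 0.834, 1.17 and 0.960 CPM against 1.96, 1.18, 2.84 and 3.01 CPM, and Pcna did not pass the test (0.11 ± 0.07). Against the unmutated hairpin 16 members were higher and 4 lower (median 0.326). Against the 2-mutation hairpin 11 were higher and 5 lower, and the median was 0.043.

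The E2F site TTTGGCGC, searched on both strands of the promoters, was found in 4 of 24 of these genes (Mcm3, Mcm5, Mcm6 and Cdt1) and in 1.06% of all 12275, and TTTCCCGC in 3 of 24 (Mcm3, Mcm7 and Cdc6) and 2.18%. A match in a promoter is a description and no measure of binding. A pair of the windows is printed with the match in capitals, in the orientation of the gene, where the reverse complement of the site can stand.
Mcm5 promoter (chr8:75109352-75109375, plus strand): gaactttcGCGCCAAAacgtccag
Mcm6 promoter (chr1:128359800-128359823, minus strand): cgtatgctTTTGGCGCgaaaagtg
Mcm5 rose by 1.5 ± 0.14 and Mcm6 by 0.49 ± 0.06.

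The genes that process and use small RNAs changed little in size. Of 13 genes 6 were higher and 5 lower (84.6% changed, 54.9% of all genes), and none by 2-fold. Among the Argonautes, Ago4 rose from 12.2, 12.9, 12.0 and 12.8 CPM to 20.8, 23.8, 18.9 and 22.2 CPM (0.78 ± 0.07), and Ago3 fell from 56.0, 60.1, 58.5 and 55.0 CPM to 35.4, 44.1, 35.4 and 36.6 CPM (−0.60 ± 0.07). Ago2, the slicer, measured 329, 343, 368 and 374 CPM against 377, 384, 397 and 386 CPM (0.13 ± 0.05, edgeR adjusted p = 0.0373). Ago1 had a value of −0.10 ± 0.04 (edgeR adjusted p = 0.031). The calls of Ago1 and Ago2 were each lost under 8 of the 18 alternatives tried.

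In the processing steps, Drosha fell by 0.17 ± 0.04, its partner Dgcr8 rose by 0.22 ± 0.06 and Dicer1 rose by 0.22 ± 0.04. The Dicer partner Prkra rose by 0.60 ± 0.06. Xpo5, which exports hairpins from the nucleus (0.10 ± 0.04, edgeR adjusted p = 0.0537), and Tarbp2 (−0.01 ± 0.07, edgeR adjusted p = 0.956) did not pass. Xpo5 passed under 6 of the 18 alternatives, with adjusted p from 0.00135 (library totals) to 0.0486 in edgeR. The Argonaute partners Tnrc6a, Tnrc6b and Tnrc6c had values of 0.27 ± 0.06, −0.41 ± 0.07 and −0.16 ± 0.04, of which the last lost its call with library totals.

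Of 17 measured sensors of double-stranded RNA and interferon response genes, 3 were higher and 6 lower. The share changed, 52.9%, was near the 54.9% of all genes tested. The double-stranded RNA kinase Eif2ak2 measured 1.97 to 3.02 CPM against 0.628 to 1.84 CPM (−1.11 ± 0.24). Ifit2 rose by 0.71 ± 0.10. Of 26 genes that miR-124 represses in neurons, 12 were higher and 5 lower (median 0.215), 65.4% changed in all. Iqgap1, a scaffold of the cytoskeleton, measured 29.4, 26.3, 27.9 and 26.4 CPM against 54.9, 52.6, 55.9 and 46.8 CPM (0.93 ± 0.06), and Lhx2, a forebrain patterning factor, fell by 1.60 ± 0.07. Compared directly with the unmutated hairpin, 6 of the 26 were higher and 9 lower.

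Cytoskeletal genes were more often higher (15 of 32) than lower (4), with a median of 0.202. Of the list 59.4% was changed, where of all genes tested it was 54.9%. The largest fall among them was that of Cfl1, the actin-severing cofilin, from 629, 600, 586 and 605 CPM to 199, 166, 214 and 187 CPM (−1.66 ± 0.06), and it carries CTAACCA. It overlaps Snx32. Tagln3, an actin-binding protein of neurons, rose from 71.8, 62.7, 62.7 and 71.2 CPM to 166, 141, 162 and 150 CPM. Genes of the matrix split evenly (11 higher and 11 lower of 31, 71.0% changed). Tnr, tenascin R of perineuronal nets, fell from 177, 234, 225 and 220 CPM to 41.3, 57.1, 42.2 and 45.6 CPM (−2.20 ± 0.13), and Has3, a hyaluronan synthase, rose from 7.64, 6.46, 7.97 and 7.2 CPM to 37.9, 32.3, 33.4 and 34.1 CPM (2.23 ± 0.10).

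Axon guidance and adhesion genes also went both ways, with 14 of 38 higher and 15 lower (76.3% changed, 54.9% of all genes). The semaphorin Sema4a fell from 35.7, 40.5, 39.7 and 36.3 CPM to 10.7, 12.5, 11.2 and 9.10 CPM (−1.80 ± 0.08), and the ephrin receptor Epha3 rose by 0.94 ± 0.05. The 8 members with CTAACCA had a median of −0.528 with 6 lower, and the 30 without it a median of 0.039 with 9 lower. In the lysosome and autophagy list 17 of 30 were lower and 7 higher (80.0% changed). The protease Ctsb measured 270, 281, 266 and 286 CPM against 103, 91.9, 116 and 107 CPM (−1.40 ± 0.06), and Gaa, the lysosomal glucosidase, rose from 139, 131, 134 and 132 CPM to 289, 279, 291 and 265 CPM.

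**Figure D5:**
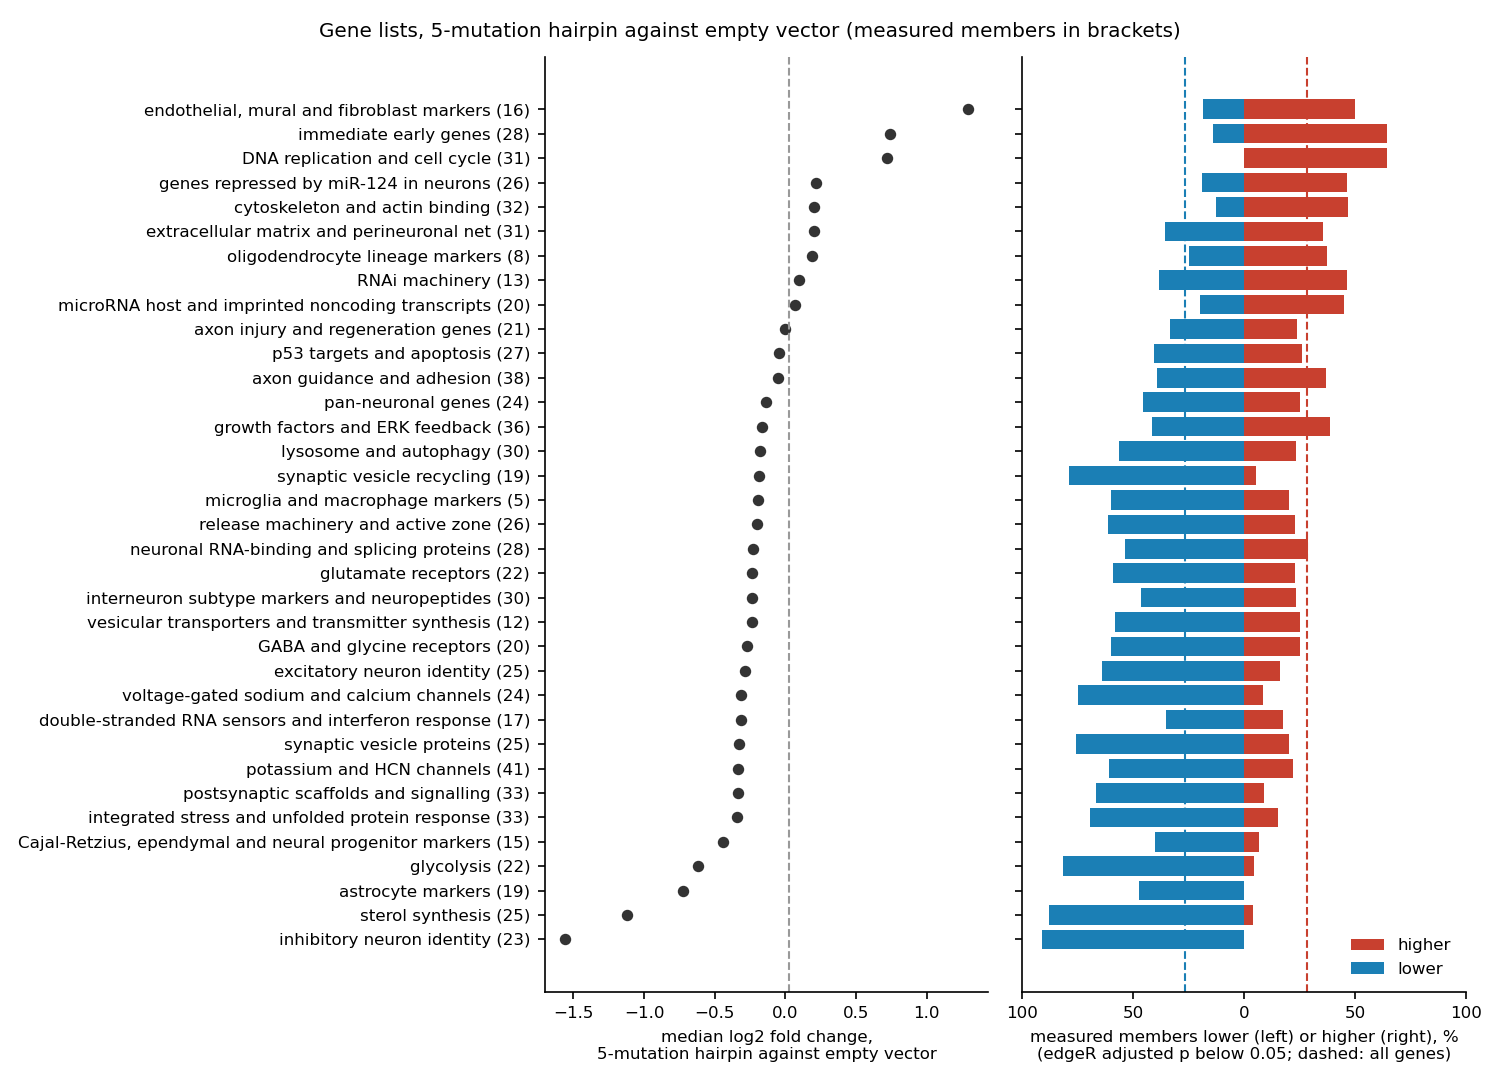
Left, median log2 fold change of the measured members of each of 35 gene lists (dashed line, all genes, 0.029); right, share of members lower or higher (edgeR adjusted p below 0.05; dashed lines, all genes, 26.5% and 28.4%). Inhibitory identity (−1.559) and sterol synthesis (−1.118) lie lowest, and fibroblast markers, immediate early genes (0.743) and cell cycle genes (0.721) highest.

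Gene length was examined because long genes are often neuronal. Across 19459 genes the slope of centred log2 CPM on log2 gene length was 0.0088 ± 0.0132 (SD, n = 4) in empty vector libraries and −0.0088 ± 0.022 (SD, n = 4) in those of the 5-mutation hairpin (exact permutation test, 2-sided p = 0.229). Among protein-coding genes the difference was −0.0361 (exact permutation p = 0.0286, the smallest that 4 against 4 allows), so the call depends on the genes used. The median log2 fold change of protein-coding genes was 0.051 under 10 kb and −0.147 for the 949 genes over 200 kb, of which 46.8% were lower.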

How the data were processed

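Ribosome-depleted total RNA of 16 libraries (4 groups of 4) was sequenced with a directional library kit, per the labels' protocols. The deposited values are raw read counts per gene, made by the authors. The submitters' processing notes name GRCm38.p6, the aligner STAR 2.7.2b, trimming by cutadapt 1.15 through Trim Galore 0.6.0, and featureCounts and edgeR. Whether counting used strand, how reads with several positions were treated and the annotation release are not given in the sources used here. All 55335 rows carry gene IDs, of which 54587 matched GENCODE vM21 with their version and 55154 without.

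Counts were tested with edgeR 4.0.16 (quasi-likelihood, robust, TMM factors, filterByExpr) in 1 fit of all 16 libraries with a coefficient per group, Benjamini-Hochberg adjusted p below 0.05, 2-sided. Alternatives were other scalings, filters, DESeq2 1.42.0, fewer genes or groups, a replicate block and leaving out each library. The script was tested on simulated data. Total counts of 33795369 to 49824569 per library left genes under 1 CPM with few reads. No pair of replicates agreed within counting noise.

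The text names the 15 highest and 15 lowest genes (at least 5 CPM in a group, no overlap, no predicted genes), the 10 highest and lowest against all 3 other groups, up to 6 members per list by smallest p, Rtn4 and the small-RNA genes. Bdnf, Cdc6, Dlx1, Fdft1, Fos, Gfap, Hmgcs1, Idi1, Mcm3, Mcm6, Mcm7, Mki67, Npas4, Nr4a1, Pcna, Pmvk, Slc2a1, Sqle, Srebf2 and Vegfa fall outside this rule and were chosen after their values were seen. The members and lists were chosen with earlier results of these data known. UTRs are the longest annotated per gene, and those under 50 bases were left out of the word scan. Some genes are counted but not reported by name here.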

Additional observations from a re-analysis of the deposited data

Results flagged for a closer look

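In 278 groups of 4 libraries (138 named genes and the score of CTAACCA, in both groups), 1 library stood apart from the other 3 by Dixon's 95% criterion in 22, or 7.91%, where chance gives about 1 in 20. In the third 5-mutation library the fibroblast and matrix genes stood high: Col1a1 at 58.2 CPM (8.48 to 13.7 in the others), Col1a2 at 40.1 CPM, Col3a1 at 57.5 CPM, Bgn at 16.1 CPM and Spp1 at 21.0 CPM. The third empty vector library was the high one for Col1a1 (6.16 CPM), Col1a2 (3.60 CPM) and Col3a1 (3.64 CPM). Npas4, an activity-induced transcription factor, reached 85.3 CPM in the third 5-mutation library, against 18.3 to 27.2 CPM. Bcl6b was lowest in the third library of both groups, at 0.994 CPM (empty vector) and 4.64 CPM (5-mutation hairpin).

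The second 5-mutation library stood apart for 6 genes. It was highest for Ago3 (44.1 CPM) and lowest for Crispld2 (18.1 CPM), Fibin (0.275 CPM), Prkra (31.5 CPM) and the helicase genes Mcm6 (14.8 CPM) and Mcm7 (10.9 CPM). The first 5-mutation library was lowest for Nckap5 at 60.6 CPM. Among the empty vector libraries, the third was highest for Cdt1 (2.12 CPM) and lowest for Xpo5 (69.3 CPM), and the fourth highest for Mcm2 (8.01 CPM) and Gfap (107 CPM).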

How the results depend on the processing

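The number of changed genes against the empty vector ran from 9578 (protein-coding genes only) to 11171 (replicate block) over the other settings, and from 10129 to 10889 with 1 library left out. Against the unmutated hairpin leaving out 1 library gave 10124 to 10854, and against the 2-mutation hairpin 12342 to 13164. No alternative called a gene in the direction opposite to its call in the reported setting; alternatives were not compared with each other. Library totals in place of TMM moved the median of all genes from 0.029 to 0.108 against the empty vector (60.9% of calls higher, 51.8% with TMM) and from 0.046 to 0.182 against the 2-mutation hairpin (61.5% and 51.0%). With at least 1 CPM in 4 libraries, where 15136 genes were tested, 1582 changed over 2-fold in place of 2402. The coefficient of CTAACCA was −0.383 with that filter and −0.383 for genes of at least 5 CPM, both chosen after seeing the data, and −0.379 to −0.364 with 1 library left out. The length slope difference was −0.0361 for protein-coding genes and −0.0268 to −0.0092 with 1 library left out. Of 2482 pairs of a named gene and an alternative, 2442 kept direction and call, 24 lost the call, 10 gained it and 6 changed sign, none of them in a called gene. Rtn4 was 0.017 with library totals, and Tarbp2 was 0.02 (upper quartile), 0.074 (library totals), 0.0 (at least 1 CPM in 4 libraries) and −0.04 to 0.029 with 1 library left out, above 0 without 5-mutation replicate 4 (0.029) or empty vector replicate 2 (0.022). Pcna passed with library totals (0.19). The cause was not tested. The labels do not say that a replicate number marks a shared culture. Deviations of same-numbered libraries correlated at 0.093, 0.186, 0.031 and 0.095 between the 5-mutation hairpin and the empty vector, 0.141, 0.154, −0.021 and 0.118 with the unmutated and 0.085, 0.272, 0.064 and 0.087 with the 2-mutation hairpin. In no comparison did every pair pass 0.1, so the numbers were not taken to pair the libraries, although 11 of 12 values were above 0. With the replicate block 11171 genes changed against the empty vector, 11245 against the unmutated and 13232 against the 2-mutation hairpin.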
